A study of Mus musculus with 10 samples.

Results

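The type I interferon response genes described here are 40 mouse genes chosen by symbol: the 2 chains of the type I interferon receptor, its 2 kinases, the transcription factors that act below it, sensors of foreign nucleic acid, and genes that interferon induces. All 40 had an identifier in the deposited counts, and 38 reached a total of more than 10 reads over 10 cortex libraries and could be tested, among 19268 genes tested of 53700 identifiers. The cortices were those of female 4-month-old mice, and the labels put 5 libraries in the 5XFAD;Neu cKO group and 5 in the 5XFAD group. Every mouse carried the 5XFAD transgenes, which express human genes with mutations of familial Alzheimer's disease in neurons, so that no library came from a mouse without these transgenes. Mice of the first group also carried floxed Idol (Mylip, a ubiquitin ligase that marks lipoprotein receptors for degradation) and Camk2a-Cre, whose promoter is active mainly in excitatory forebrain neurons. The labels of the controls name Idol and then Camk2a-cre WT, without saying what WT refers to. The study's methods call them 5XFAD littermates, and neither source says which of the floxed allele and Cre they carried. The comparison asks whether deletion of Idol in neurons changed the transcriptome of the amyloid-bearing cortex.

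Type I interferons are secreted proteins that alert cells to viral or misplaced nucleic acid. They bind IFNAR1 and IFNAR2, which activate the kinases TYK2 and JAK1. These phosphorylate STAT proteins, STAT2 among them, which join IRF9 in a complex that binds the interferon-stimulated response element (ISRE) in the promoters of interferon-stimulated genes. STAT dimers without IRF9 bind a different element, the gamma-activated site (GAS). In the brain, microglia and a subset of astrocytes and neurons express such genes in ageing, infection and amyloid models.

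The ISRE was searched for in the promoters of the 40 genes, since it is the element through which STAT2 and IRF9 act. The letters TTTCNNTTTC, on either strand, were present from 250 bases before to 50 bases after the annotated start of 16 of 40 genes (40%), compared with 829 of 21626 protein-coding genes (3.83%). The GAS letters TTCNNNGAA, which read the same on both strands, were present in 9 of 40 (22.5%), compared with 8.85% of all windows. The 2 motifs can overlap at a few bases, as they did at Bst2. The following stretches of GRCm39 are shown 5′ to 3′ on the strand of each gene with the match in capitals. They come from the effectors Ifit1 and Rsad2, from Isg15, a ubiquitin-like modifier, and Usp18, the protease that removes it, from the transcription factor Stat2, and, for the GAS, from Irf1. Offsets are those of the first capital from the start of transcription. GAAANNGAAA is the ISRE read on the other strand.
Ifit1, chr19:34618175-34618204, plus strand, -86: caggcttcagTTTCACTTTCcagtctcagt
Ifit1, chr19:34618194-34618223, plus strand, -67: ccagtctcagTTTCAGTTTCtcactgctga
Rsad2, chr12:26506552-26506581, minus strand, -120: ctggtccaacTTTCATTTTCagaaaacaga
Isg15, chr4:156285328-156285357, minus strand, -44: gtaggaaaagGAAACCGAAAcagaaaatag
Usp18, chr6:121222772-121222801, plus strand, -75: ggtgcctgagTTTCGCTTTCctttggatct
Stat2, chr10:128106135-128106164, plus strand, -207: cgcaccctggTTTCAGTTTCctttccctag
Irf1 (GAS), chr11:53660741-53660769, plus strand, -90: acagcctgatTTCCCCGAAatgatgaggc
By role, the ISRE letters were in 0 of 4 receptor and kinase genes, 1 of 5 transcription factors, 3 of 4 sensors, 5 of 11 antiviral effectors, 3 of 7 genes of the ISG15, ubiquitin and PARP group and 4 of 9 GTPases and other induced genes. A match is a description of these letters, not a measured binding site.

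QuantSeq libraries sample the 3′ ends of polyadenylated transcripts, and a long transcript gives no more reads than a short one. Levels are therefore given as CPM, the reads of a gene per 1000000 reads on genes of its library, with library sizes scaled by edgeR's TMM factors and without division by length. Reads on genes ranged from 4320504 to 7466192 in the 5XFAD libraries and from 5148499 to 7246659 in the libraries labelled 5XFAD;Neu cKO. At this depth a gene with 0 reads in a library could still be present at 0.394 to 0.704 CPM, the range of 3 reads on this scale, and such limits cover counting error only. Mylip, the targeted gene, was not lower in these counts where it was labelled deleted. It had 50, 53, 108, 50 and 45 reads in 5XFAD replicates 1 to 5 and 77, 78, 148, 112 and 50 reads in those labelled 5XFAD;Neu cKO, a log2 fold change of 0.39 (SE 0.25, edgeR adjusted p = 0.777). The counts are summed per gene and do not show which part of the transcript was read, so this is no test of the deletion. By qPCR, the study reported lower Idol mRNA in the cortex of mice with neuronal deletion than in controls. The group is given as labelled throughout.

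No interferon response gene passed the threshold in libraries labelled 5XFAD;Neu cKO compared with 5XFAD. The adjusted p-values of the 38 tested genes ran from 0.436 to 0.999 (edgeR quasi-likelihood test, Benjamini-Hochberg adjustment over all genes), while 0.218% of all genes tested had an adjusted p under 0.05. Without adjustment, 2 of the 38 had p under 0.05 (5.26%), Tyk2 higher and Mx1 lower, against 7.95% of all genes. DESeq2 likewise called 0 of them and 0.379% of all genes, and gave no adjusted p for 35 of the 38 under its default filter on mean counts. The libraries of the 2 groups overlapped for all 40 genes. They did not overlap for 1.3% of all genes tested, so that 0 among so few genes is close to that share. No member had an exact permutation p under 0.05, and the share over all genes was not counted. The smallest p that relabelling 5 against 5 libraries allows is 0.0079.

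Values fell on both sides of 0. The log2 fold change was below 0 for 21 genes and above 0 for 17, or 55.3% below compared with 50.1% of all genes, and its median was -0.06 over the 38 genes and -0.0006 over all genes. These counts do not bound the size of a change in every gene. The 95% interval lay wholly between -1 and 1 on the log2 scale for 12 of the 38 genes (31.6%), compared with 53.6% of all genes, and reached past one of these bounds for 26. The 12 were Ifnar1, Ifnar2, Jak1, Irf9, Irf3, Ifih1, Adar, Cmpk2, Ifitm3, Trim25, Parp14 and Ifi27. For the other genes a change by a factor of 2 or more, in one direction at least, lay inside the interval or at its edge.

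**Figure D1:**
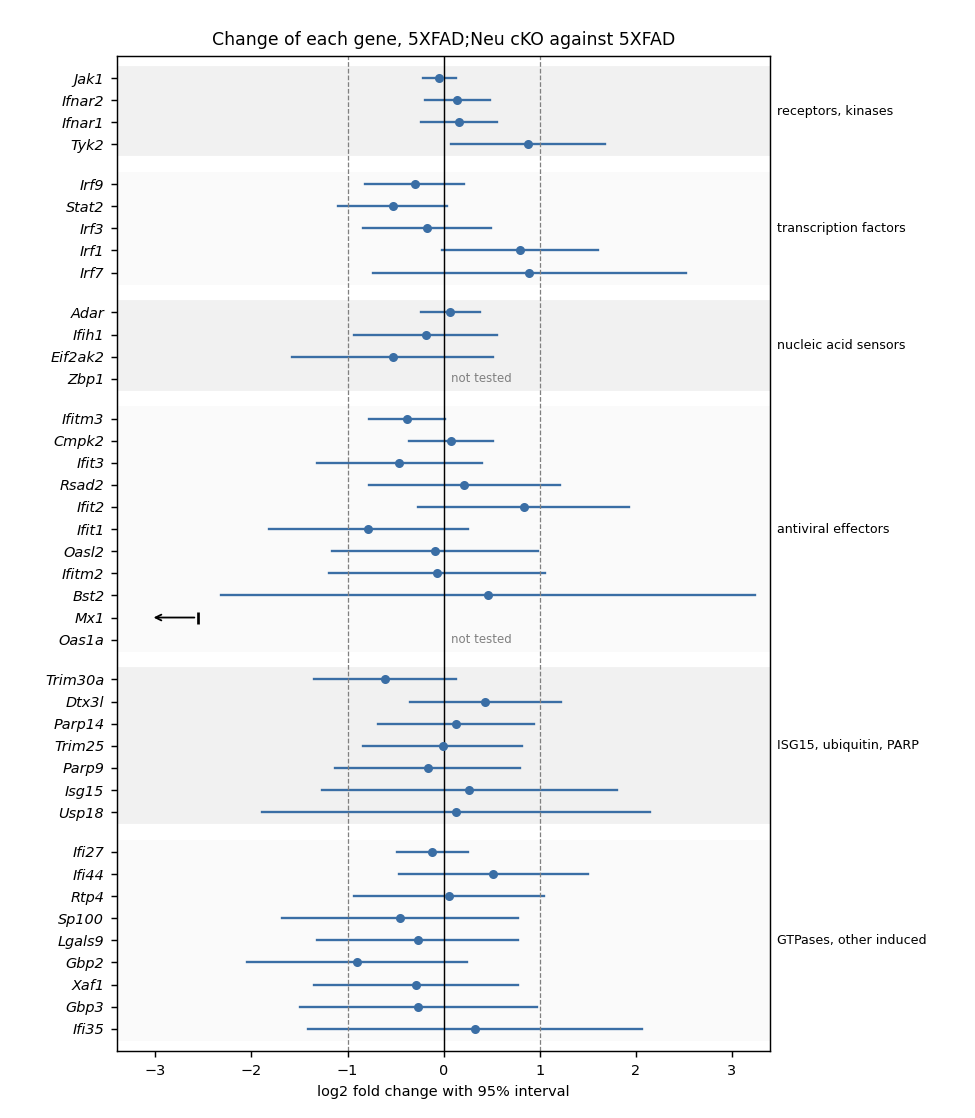
Log2 fold change of each interferon response gene in libraries labelled 5XFAD;Neu cKO against 5XFAD (x axis, n = 5 per group), by role, with points for the edgeR estimate and lines for the 95% interval. Dashed lines mark -1 and 1, and Zbp1 and Oas1a had too few reads to test. An arrow marks the bound for Mx1, which had no reads in 1 group, against 3 reads there with its 5XFAD reads taken as exact. Of the 38 intervals, 36 hold 0, and those of Tyk2 and Mx1 do not (for Mx1 the bound is drawn in place of the interval).

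Low levels were a common feature of the genes. The median of their mean levels was 3.55 CPM, compared with 7.97 CPM over all genes tested, 24 of 38 were under 5 CPM, and 8 were over 10 CPM: Jak1, Adar, Ifnar2, Ifi27, Ifitm3, Ifnar1, Cmpk2 and Irf9. Reads were found in all 10 libraries for 31 of the 40 genes, and 7 tested genes (Irf7, Ifit2, Mx1, Bst2, Isg15, Usp18 and Sp100) had 0 reads in at least 1 library. Replicates of a group also varied by more than counting error alone. The within-group chi-square per degree of freedom, which is about 1 where reads vary only by sampling, had a median of 4.05 over the members and was above 1 for 37 of 38, with 4.76 as the median over all genes.

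**Figure D2:**
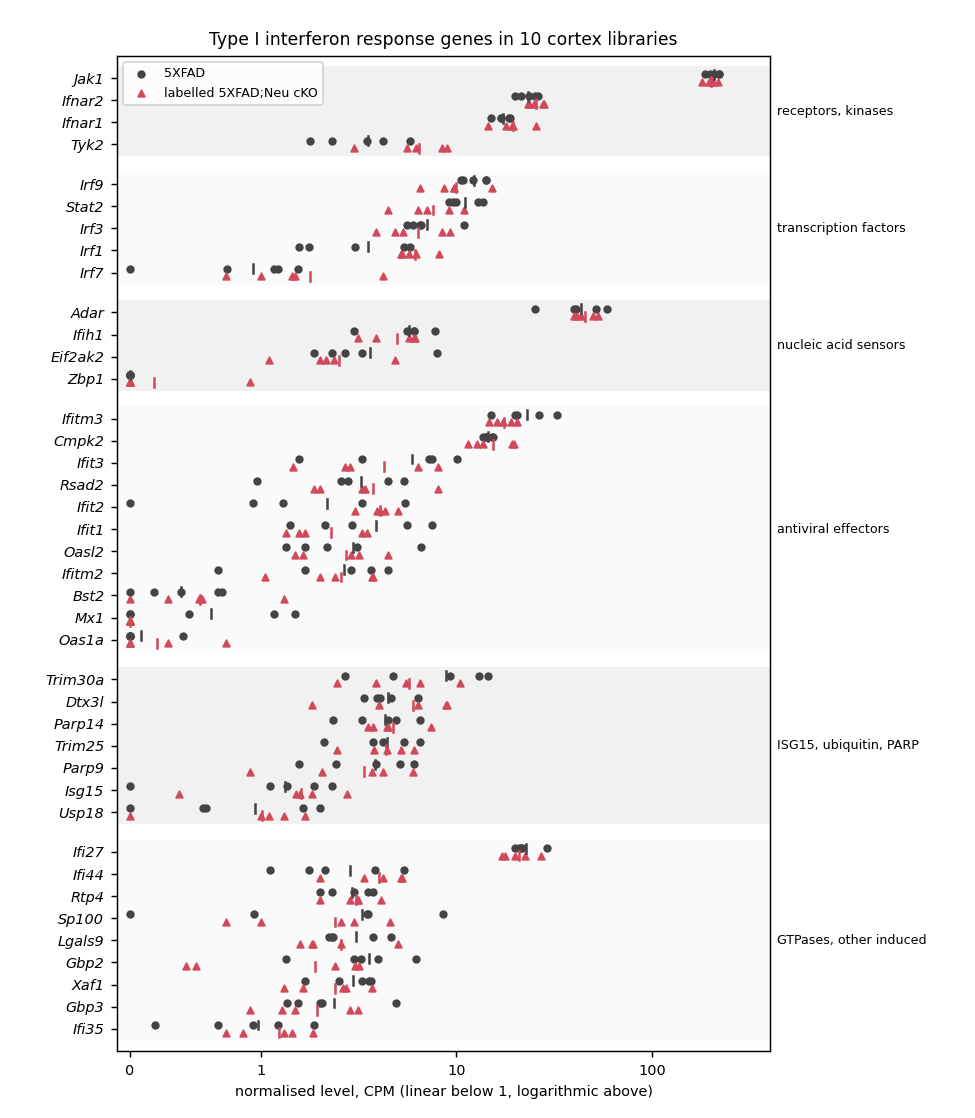
Level of each of the 40 genes in each of the 10 libraries (x axis, CPM, linear below 1 and logarithmic above), by role, with circles for 5XFAD, triangles for libraries labelled 5XFAD;Neu cKO and bars for group means. The symbols of the groups overlap in every row, and most rows lie under 10 CPM.

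The receptor and its kinases were read in every library. Ifnar1, the receptor chain on which TYK2 sits (chr16:91281942-91305789), had 87, 80, 137, 90 and 67 reads in 5XFAD and 103, 97, 111, 151 and 136 in libraries labelled 5XFAD;Neu cKO. Its level was 17.2 ± 1.5 and 19.3 ± 3.9 CPM (SD, n = 5 per group), a log2 fold change of 0.16 (SE 0.20, edgeR adjusted p = 0.932). Ifnar2, the high-affinity chain bound to JAK1 (chr16:91169618-91202723), had 134, 100, 146, 135 and 95 reads against 150, 127, 211, 138 and 174. Its log2 fold change was 0.14 (SE 0.17, 95% interval -0.20 to 0.48). The groups overlapped for both chains.

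Jak1 was the most abundant of the 40 genes, with 1063, 936, 1608, 1061 and 823 reads in 5XFAD and 1071, 1058, 1554, 1290 and 1247 in libraries labelled 5XFAD;Neu cKO. Besides the interferon receptor, JAK1 serves many cytokine receptors. Its level was 205 ± 15 CPM and 199 ± 14 CPM, a log2 fold change of -0.05 (SE 0.09, 95% interval -0.22 to 0.13, edgeR adjusted p = 0.966), the narrowest interval among the members.

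Tyk2, the kinase of IFNAR1 (chr9:21015363-21042689), had 18, 18, 17, 31 and 8 reads in 5XFAD. In libraries labelled 5XFAD;Neu cKO it had 16, 46, 68, 37 and 39 reads. Replicates 2, 3 and 4 of the second group were above every 5XFAD library in CPM and replicates 1 and 5 were not, and the level was 3.52 ± 1.58 CPM and 6.44 ± 2.39 CPM. The log2 fold change of 0.88 (SE 0.40) gave p = 0.033 in edgeR before adjustment and 0.558 after it, and an exact two-sided permutation p of 0.0714. Tyk2 thus did not pass the threshold.

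Of the 5 transcription factors, 3 had a fold change below 0 and 2 above. Stat2, the STAT particular to type I and III interferon signalling, had 47, 41, 73, 69 and 61 reads in 5XFAD and 24, 50, 54, 38 and 76 in libraries labelled 5XFAD;Neu cKO. Replicates 1, 3 and 4 of the second group were below every 5XFAD library in CPM, and replicates 2 and 5 were within the 5XFAD range. Its level was 11.0 ± 2.1 and 7.62 ± 2.50 CPM, a log2 fold change of -0.53 (SE 0.28, unadjusted p = 0.068, adjusted p = 0.677 in edgeR, exact permutation p = 0.0635). Irf9, the DNA-binding partner of STAT2, had 73, 60, 78, 65 and 48 reads against 35, 53, 115, 58 and 60, with a log2 fold change of -0.30 (SE 0.26). Its highest and its lowest CPM were both in the group labelled 5XFAD;Neu cKO. Irf9 shares its strand and part of its locus with Rnf31, where reads can be ambiguous.

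Irf7, the factor that amplifies interferon production once it is induced, was close to the limit of detection. It had 8, 5, 9, 4 and 0 reads in 5XFAD and 8, 4, 11, 25 and 7 in libraries labelled 5XFAD;Neu cKO, so that 1 library held 25 of the 55 reads of its group. The log2 fold change was 0.89 (SE 0.81, adjusted p = 0.882 in edgeR) and 0.30 without that library. Irf7 overlaps Phrf1 on the opposite strand, and the strand setting of the counting is not given in the sources used here. Irf1, an early factor that also answers interferon gamma, had 28, 13, 13, 31 and 7 reads against 28, 31, 40, 37 and 57 (0.80 on the log2 scale, SE 0.41, adjusted p = 0.644 in edgeR). Irf3, a constitutive factor that sensors activate by phosphorylation, had 28 to 80 reads in 5XFAD and 26 to 64 in the other group (log2 fold change -0.17).

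Among the nucleic acid sensors, Adar, which edits double-stranded RNA and so limits its sensing, was the most abundant. It had 205, 107, 300, 276 and 261 reads in 5XFAD and 212, 236, 400, 296 and 286 in libraries labelled 5XFAD;Neu cKO, a log2 fold change of 0.07 (SE 0.15, 95% interval -0.23 to 0.38, edgeR adjusted p = 0.971). The single low library, 5XFAD replicate 2, lay below all others in CPM. Ifih1, which encodes the RNA sensor MDA5, had 16 to 41 reads against 21 to 46 (-0.19), and Eif2ak2, the RNA-dependent kinase PKR, 10 to 41 against 6 to 26 (-0.53). The value for Eif2ak2 was -0.02 without 5XFAD replicate 1, which held 41 of its reads. Zbp1, a sensor of Z-form nucleic acid, had 5 reads in all, each of them in replicate 2 of the group labelled 5XFAD;Neu cKO, and was not tested.

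Of the 11 antiviral effectors, 10 were tested, with 6 fold changes below 0 and 4 above. Ifit1, whose protein binds viral RNA that lacks the marks of a host cap and whose promoter holds the pair of ISREs shown, had 11, 6, 41, 40 and 13 reads in 5XFAD. The other group had 9, 19, 12, 8 and 23. The log2 fold change was -0.79 (SE 0.52, adjusted p = 0.797 in edgeR, exact permutation p = 0.262), with replicates 3 and 4 of 5XFAD above every other library. Its neighbours in the family did not share 1 sign, since Ifit2 had 0.83 (SE 0.55) and Ifit3 -0.46 (SE 0.43). The value for Ifit2 was 1.52 without 5XFAD replicate 3 and 0.53 without 5XFAD replicate 5. Ifit genes are near-identical in places, and reads between them may be split or dropped.

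Mx1, a GTPase that blocks influenza viruses, had 0, 5, 0, 8 and 2 reads in 5XFAD and 0 reads in all 5 libraries labelled 5XFAD;Neu cKO. Set against 3 reads over that group, its pooled level was 5.88-fold lower there, on a total of 15 reads. This value is a bound only with the 5XFAD reads taken as exact, without their spread between libraries. With that spread, the edgeR interval of the log2 fold change ran from -8.535 to -1.234, so a smaller change was not excluded. The unadjusted p was 0.010 and the adjusted p was 0.436 in edgeR, and the exact permutation test gave 0.167. As 2 of the 5XFAD libraries also had 0 reads, the groups overlapped.

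Ifitm3, a membrane protein that restricts viral entry, was the effector with the most reads. It had 168, 113, 111, 109 and 89 reads in 5XFAD and 101, 111, 112, 96 and 121 in libraries labelled 5XFAD;Neu cKO, with a log2 fold change of -0.38 (SE 0.20, unadjusted p = 0.058, adjusted p = 0.655 in edgeR). Replicates 1 and 2 of 5XFAD were above all other libraries in CPM. Cmpk2, a mitochondrial nucleotide kinase that lies beside Rsad2, had 60 to 104 reads against 76 to 105 (0.08), and Rsad2, which makes a chain-terminating nucleotide, 5 to 23 against 10 to 48 (0.22). The remaining tested effectors were Oasl2 (-0.09), Ifitm2 (-0.07) and Bst2, which tethers budding virus (0.46, SE 1.38). Oas1a, whose product makes the activator of RNase L, had 9 reads in all and was not tested.

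In the ISG15, ubiquitin and PARP group, 3 of 7 fold changes were below 0 and 4 above, with a median of 0.13. Isg15, the ubiquitin-like modifier, had 12, 0, 10, 10 and 5 reads in 5XFAD and 2, 10, 21, 9 and 11 in libraries labelled 5XFAD;Neu cKO, a log2 fold change of 0.27 (SE 0.77, 95% interval -1.27 to 1.80, adjusted p = 0.982 in edgeR). Usp18, which removes ISG15 and dampens the receptor, had 0 to 9 reads against 0 to 10 (0.13). Trim25, a ligase for RIG-I, and its relative Trim30a gave -0.01 and -0.61. Dtx3l and Parp9, a ligase and its partner that share a promoter region on opposite strands, gave 0.43 and -0.17, and Parp14 gave 0.13. Of these, Trim30a had the lowest adjusted p at 0.748.

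Among 9 GTPases and other induced genes, 6 fold changes were below 0 and 3 above, with a median of -0.26. Gbp2, a guanylate-binding protein that also answers interferon gamma, had 32, 17, 24, 16 and 6 reads in 5XFAD and 17, 13, 23, 3 and 3 in libraries labelled 5XFAD;Neu cKO (-0.90, SE 0.57, adjusted p = 0.778 in edgeR). Its relative Gbp3 gave -0.26. Ifi27, a small hydrophobic protein, was the most abundant of the 9, with 89 to 160 reads against 118 to 145 (-0.12, SE 0.18). The others were Ifi44 (0.52), Ifi35 (0.33), Rtp4 (0.06), Xaf1 (-0.29), Sp100, a nuclear body protein (-0.45), and Lgals9, a galectin (-0.27). Gbp and Sp100 belong to families with close copies, so their counts are uncertain.

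Genes with and without the promoter letters were set side by side, as a description with no test. The 14 tested genes with a match had a median log2 fold change of -0.23, with 9 below 0 and a range from -0.90 to 0.46, and the 24 without a match had a median of 0.03, with 12 below 0. For the GAS letters, 1 of 7 tested genes with a match was below 0, compared with 20 of 31 without. Of the 7, Adar and Bst2 changed sign with 1 library left out. The shares below 0 over all genes with and without either set of letters were not counted. No interferon response gene with or without a match passed the threshold.

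**Figure D3:**
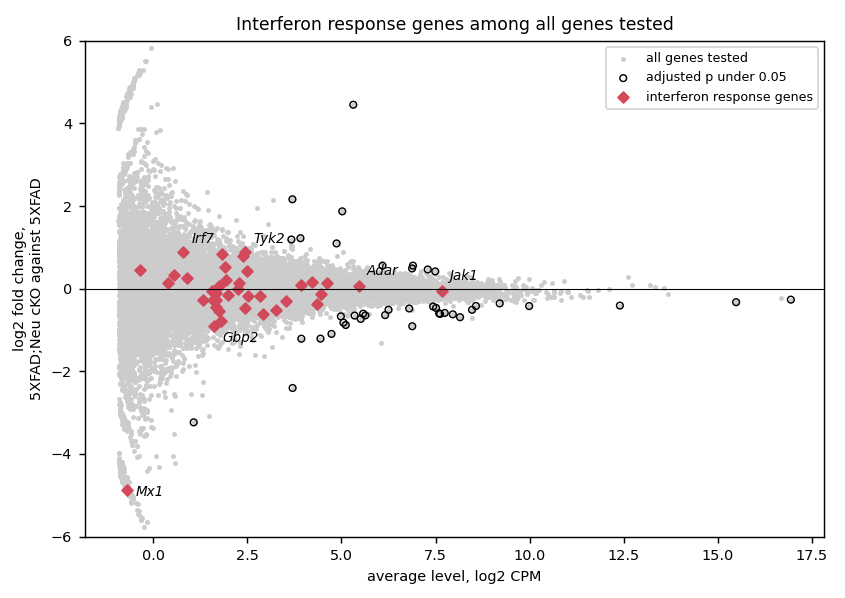
Log2 fold change (y axis) against average level (x axis, log2 CPM) for all 19268 genes tested, with the 38 tested interferon response genes as diamonds and genes with an adjusted p under 0.05 ringed. The diamonds lie within the cloud of other genes of the same level and none is ringed, and 2 genes lie outside the y axis; the value drawn for Mx1, with no reads in 1 group, is a fitted one and no bound.

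Summed levels showed no separation of the groups by interferon response genes. The 27 induced members (effectors, the ISG15, ubiquitin and PARP group, and GTPases with the other induced genes) summed to 139, 161, 123, 131 and 107 CPM in 5XFAD and to 136, 116, 129, 123 and 99.0 CPM in libraries labelled 5XFAD;Neu cKO. The means were 132 ± 20 and 121 ± 14 CPM (SD, n = 5 per group), and the ranges overlapped. The 4 receptor and kinase genes summed to 223 to 266 CPM and 229 to 272 CPM. A few genes set these sums. Jak1 alone had a mean of 202 CPM, so the second sum mostly follows Jak1 and says little of Tyk2. Among the 27, Ifi27, Ifitm3 and Cmpk2 weighed most, with means of 21.7, 20.2 and 14.9 CPM. No single library carried the highest values of all genes, although 5XFAD replicate 2 held the highest CPM for 9 of the 38 tested members and replicate 2 of the other group for none.

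Microglia markers did separate the groups. The 13 microglia markers with an identifier summed to 489 to 714 CPM in 5XFAD and to 331 to 418 CPM in libraries labelled 5XFAD;Neu cKO, without overlap, and all 13 had a fold change below 0, with a median of -0.65 and 6 past the threshold (50.1% of all genes were below 0 and 0.218% past the threshold). In bulk cortex, fewer cells of a type and less RNA per cell cannot be told apart. The part of this difference in the values of single interferon response genes was not tested. Of 8 lymphocyte markers, 4 had 0 reads in every library and only 1 reached the count minimum. The summed markers of border macrophages (6.10 to 13.5 and 8.80 to 16.99 CPM), endothelium, astrocytes, oligodendrocytes, neurons and choroid plexus overlapped between the groups. Single markers did not all follow their sums. Gfap, a filament of reactive astrocytes, was lower (44.5 and 24.1 CPM, log2 fold change -0.88, SE 0.17, adjusted p = 0.0020 in edgeR) without overlap of the groups, and 7 of 8 astrocyte markers had a fold change below 0. All 6 oligodendrocyte markers had one too, 4 of them at an unadjusted p under 0.05 in edgeR (7.95% of all genes) and 0 past the threshold. Neuron markers went both ways, with 3 below 0 and 3 above among excitatory and likewise among inhibitory ones. Neurod2, an excitatory marker, was higher without overlap of the groups (log2 fold change 0.32, SE 0.10, adjusted p = 0.274 in edgeR). Over all genes tested, the groups did not overlap for 1.3%. Of the 6 inhibitory markers, 1 was higher and 1 lower at an unadjusted p under 0.05 in edgeR, against 7.95% of all genes in either direction. The part of these markers in the values of interferon response genes was not tested either. The sums of neurons, astrocytes and oligodendrocytes were high in all libraries, as the labelled tissue has.

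**Figure D4:**
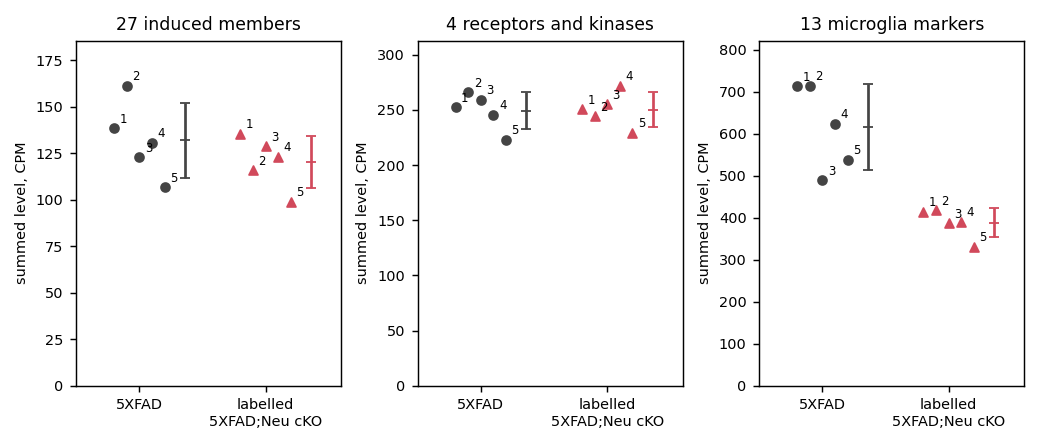
Summed level (y axis, CPM) of the 27 induced interferon response genes, the 4 receptor and kinase genes and 13 microglia markers in each library, numbered by replicate, with mean and SD beside each group (n = 5). The first 2 panels overlap between the groups, whereas the microglia markers of 5XFAD (489 to 714 CPM) all lie above those of libraries labelled 5XFAD;Neu cKO (331 to 418 CPM).

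Beyond the 40 genes, 110 further genes of the interferon pathway were looked at, and none of the 77 that could be tested passed the threshold (lowest adjusted p = 0.246 in edgeR). The ligands were not seen at all. Ifnb1, which encodes interferon beta, the interferon alpha genes and the other ligands, 21 genes in total, had 0 reads in every library, which over 57717777 reads allows a level of up to 0.0518 CPM each. The interferon alpha genes are near-identical, and reads that matched several of them would not have been counted. Of the 77, 50 had a fold change below 0 (64.9%, against 50.1% of all genes) and 27 above, with a median of -0.18. At an unadjusted p under 0.05 there were 8 (10.4%, against 7.95% of all genes), of which 5 were lower and 3 higher. For 1 gene, Shisa5, the groups did not overlap (1.3%, the same share as over all genes).

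Among signalling genes and brakes outside the 40, 10 of 11 fold changes were below 0 and 1 above. Ifngr1, the ligand-binding chain of the interferon gamma receptor, had 77, 95, 132, 67 and 89 reads in 5XFAD and 79, 73, 86, 69 and 45 in libraries labelled 5XFAD;Neu cKO (-0.61, SE 0.23, adjusted p = 0.445 in edgeR). Its ranges overlapped. Genes of sensing and induction were below 0 in 8 of 12 and above in 4.

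Of the other induced genes, 32 of 54 were below 0 and 22 above. Lgals3bp, a secreted glycoprotein, had 118, 134, 71, 111 and 52 reads in 5XFAD and 55, 59, 80, 70 and 79 in libraries labelled 5XFAD;Neu cKO. Its level was 19.3 ± 8.9 CPM in 5XFAD and 11.0 ± 0.6 CPM in the other group, a log2 fold change of -0.80 (SE 0.24, adjusted p = 0.246 in edgeR). Replicate 3 of 5XFAD, at 9.65 CPM, lay below all other libraries, and without it the adjusted p was 0.044, past the threshold. Shisa5, a membrane protein of the endoplasmic reticulum, had 379, 357, 405, 313 and 240 reads against 288, 251, 376, 288 and 333. All 5 libraries of the second group lay below all 5XFAD libraries in CPM, the nearest at 53.8 and 53.9 CPM, and the log2 fold change was -0.40 (SE 0.13, adjusted p = 0.280 in edgeR). Gbp4, a relative of Gbp2, Pnpt1, a mitochondrial RNA nuclease, and Phf11b followed, and their groups overlapped.

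Gbp4 had 4, 4, 11, 0 and 4 reads in 5XFAD and 15, 4, 51, 9 and 10 in libraries labelled 5XFAD;Neu cKO, so that 1 library held most reads of its group. Its log2 fold change was 1.65 (SE 0.74, adjusted p = 0.544 in edgeR) and 0.95 without that library. Pnpt1 had 64, 21, 61, 54 and 30 reads against 73, 76, 64, 63 and 118 (0.57, SE 0.27, adjusted p = 0.594 in edgeR). Phf11b had 13, 0, 4, 0 and 0 reads against 0, 1, 0, 0 and 0. Most of its reads were in 5XFAD replicate 1, and without that library it had too few reads to test. The fitted log2 fold change of -3.53 (SE 1.70, adjusted p = 0.606 in edgeR) rests on 1 read in the second group and ran from -4.90 to -2.50 over the alternatives that could be fitted.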

How the data were processed

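The 10 cortex libraries, 5 per group, were analysed as bulk RNA-seq. The authors prepared QuantSeq 3′ libraries, removed adapter and poly(A) sequence, mapped the single reads to GRCm39 with STAR 2.7.3a and counted them per Ensembl gene with HTSeq (version 0.9.1 in the submitters' processing notes, a later one in the paper's methods), and deposited raw counts per gene without normalization. The strand setting of the counting is not given in the sources used here, so the counts of 12 members that overlap a protein-coding gene of the opposite strand are uncertain, and so are those of 3 that overlap one of their own strand. Rows that name no gene were left out of library sizes and tests. They held, as a share of the reads with 1 place in the genome, 31.3% to 39.9% without a feature and 0.428% to 0.467% ambiguous reads. Names and places were taken from a later GENCODE release of the same build, which named 52603 of 53700 identifiers.

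The test across all genes was that of edgeR 4.0.16 in R 4.3.3 (glmQLFit and glmQLFTest, TMM normalization, group as the only term, total count over 10), with Benjamini-Hochberg adjustment over 19268 genes and calls at an adjusted p under 0.05. edgeR estimated a common biological coefficient of variation of 0.281. Each standard error is the size of the log2 fold change divided by the square root of edgeR's F statistic. Intervals of 95% come from this derived standard error. Single genes were also compared on mean log2 CPM (prior count 2) by an exact permutation test, two-sided. Samples are separate by label. The edgeR p-values set a difference against a spread between libraries that is estimated with information shared across genes. The permutation p-values use only the values of the gene itself. Promoter windows were cut from GRCm39 at the canonical start of each protein-coding gene.

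The 40 genes, the lists of other pathway genes and markers, and the tests were chosen with earlier results of these data known, and the lists were written from general knowledge. Read counts and full statistics are given for members with an unadjusted p under 0.05, the 3 with the highest mean CPM, and Ifnar1, Ifnar2, Stat2, Irf9, Irf7, Ifit1 and Isg15, and for other pathway genes for those whose groups do not overlap, the 6 with the lowest p and Ifnb1. An item the rule covers is not reported here. Read counts of Irf1, Ifitm3 and Gbp2 were added after their values were seen. Alternatives were DESeq2 1.42.0 (the tool of the study), its size factors, filterByExpr, no filter, a robust fit, a block on the replicate number, the table without mitochondrial genes, and each library left out in turn. The steps were tested on simulated data.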

Additional observations from a re-analysis of the deposited data

Results flagged for a closer look

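In 8 of 76 groups of 5 libraries, 1 library lay far from the others of its group for an interferon response gene, by Dixon's ratio of its gap to the whole range (above 0.71). For values from a normal distribution, chance marks about 1 in 20 such groups. These are CPM of mostly low counts that varied beyond counting error, so that rate need not hold here. The share over all genes was not counted. Irf3 stood at 10.9 CPM in 5XFAD replicate 3, where the other 4 libraries of the group had 5.59 to 6.57 CPM. Eif2ak2 stood at 7.95 CPM in 5XFAD replicate 1, against 1.86 to 3.29 CPM. In 5XFAD replicate 2, Gbp3 stood at 4.93 CPM, against 1.36 to 2.05 CPM, and Ifi27 at 28.9 CPM, against 19.97 to 21.73 CPM. In replicate 4 labelled 5XFAD;Neu cKO, 3 genes stood apart: Irf7 at 4.21 CPM (others 0.736 to 1.496), Rsad2 at 8.08 CPM (others 1.87 to 3.41) and Parp14 at 7.40 CPM (others 3.55 to 4.46). Lgals9 stood at 5.05 CPM in replicate 1 labelled 5XFAD;Neu cKO, where the others had 1.58 to 2.58 CPM. Each of the 8 was the highest library of its group. The cause of these values was not tested.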

How the results depend on the processing

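The count of interferon response genes past the threshold was 0 under every alternative run, while all genes called ranged from 26 to 112 and were 42 as reported. The lowest adjusted p of any member was 0.369 (edgeR, Mx1 without 5XFAD replicate 3). The median log2 fold change of the members lay between -0.15 and -0.001 with 1 library left out and between -0.11 and 0.014 otherwise. The number below 0 lay between 18 and 24. Library medians of log2 CPM over the members had a pooled SD of 0.16 within groups. That is a spread of single libraries and not of a difference between groups. With the replicate number as a block, 112 genes were called, of which 0 were members, 18 members were below 0 and the median was 0.014. Same-numbered libraries did not deviate together (correlations -0.011 to 0.019), so the numbers were not taken to pair the mice. Among other interferon pathway genes 0 to 1 were called with 1 library left out, the 1 being Lgals3bp without 5XFAD replicate 3 (log2 fold change -0.98). DESeq2 called 73 genes, no filter on low counts 103 and filterByExpr 32, which kept 32 of the 38 members.

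Of 638 member values under alternatives, 36 had the other sign, in 15 members, and 23 members kept their sign. With 1 library left out, the log2 fold change ran from -0.067 to 0.201 for Adar, -0.144 to 0.774 for Bst2, -0.025 to 0.167 for Cmpk2, -0.513 to 0.168 for Gbp3, -0.308 to 0.173 for Ifitm2, -0.342 to 0.045 for Irf3, -0.036 to 0.545 for Isg15, -0.340 to 0.400 for Oasl2, -0.092 to 0.313 for Parp14, -0.477 to 0.068 for Parp9, -0.273 to 0.469 for Rsad2, -0.073 to 0.174 for Rtp4, -0.840 to 0.283 for Sp100, -0.177 to 0.167 for Trim25 and -0.209 to 0.592 for Usp18. The replicate block gave 0.011 for Oasl2, 0.022 for Ifitm2 and 0.017 for Trim25. The cause was not tested. For 26 of the 38 members the 95% interval reached a 2-fold change in at least 1 direction, at low read counts and with a spread between replicates above counting error, and the part of each was not tested.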
